A study of Mus musculus with 36 samples.

Results

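Of 9 genes of the type I interferon response (Stat2, Irf7, Irf9, Isg15, Ifit1, Ifit3, Oas1a, Usp18 and Bst2), 5 were found by symbol among the 12762 genes of the expression table, and they are described here in pre-B cells in which the transcription factor Ikaros was induced. They are Stat2, Irf9, Irf7, Isg15 and Bst2. The other 4 listed genes, Ifit1, Ifit3, Oas1a and Usp18, are not analysed here. The 36 libraries were strand-specific mRNA sequencing of B3, a mouse pre-B cell line, with n = 3 for each of 2 lines at 0, 2, 6, 12, 18 and 24 h. The Ikaros line was transduced with an MSCV retroviral vector that carries HA-tagged Ikaros fused to ERt2, the estrogen receptor part that binds the hormone, with GFP behind an IRES, and the control line carries the ERt2 vector without Ikaros. Both lines are populations sorted for GFP and expanded, and the study does not describe replicate transductions of either line. Both were given 0.5 uM of 4-hydroxy-tamoxifen (4-OHT), the drug that releases the fusion protein into the nucleus. The labels list the drug for the 0 h samples too, whereas the study's methods describe those as uninduced and collected on separate occasions, so a comparison with 0 h also compares occasions. Culture batches 1, 2 and 4 gave the 0 h samples and batches 1, 3 and 4 all later ones.

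Type I interferons bind the receptor made of Ifnar1 and Ifnar2, whose kinases Jak1 and Tyk2 phosphorylate STAT proteins such as Stat2. Phosphorylated Stat2 joins Irf9 in the complex ISGF3, which enters the nucleus and binds interferon-stimulated response elements in the promoters of its target genes. Irf7 is a target of ISGF3 that in turn drives interferon genes, while Isg15, a ubiquitin-like modifier, and Bst2 (tetherin), which holds budding virus at the cell surface, are products of the response. In lymphoid progenitors such genes can also be expressed at a tonic level without infection.

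Values are normalised expression on the log2 scale as deposited, adjusted for GC content and gene length, with a constant that cancels in every difference. Calls were made by limma where the adjusted p (Benjamini-Hochberg, all 12762 genes) was under 0.05, and no counts were used, so the depth behind a value is unknown. As the check of the line labels, Ikzf1, the gene of Ikaros, was between 5.19 and 6.26 log2 units higher in Ikaros cells at all 6 times, with every Ikaros library above every control library. All 15 listed pre-B markers were in the table, 11 of them above the median gene, whereas 3 of 10 macrophage and dendritic cell markers, 1 of 7 T cell markers (Lck), 3 of 6 erythroid markers and 0 of 6 fibroblast markers were in it. Library medians lay between 11.70 and 11.73. In bulk RNA, fewer cells with a transcript and less transcript per cell cannot be told apart.

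The promoters are shown because the members differ in the element that ISGF3 and interferon regulatory factors read. RefSeq start sites on GRCm38.p6 gave a window of 300 bases for each of the 5 genes (250 bases before the start and 50 after it), with a pair of windows for Irf9. The windows were searched on both strands for the repeat GAAANNGAA, which 8.56% of all 32851 windows of this length hold at least once. The 250 bases before the start are printed 5′ to 3′ in the direction of the gene for the 3 members with a match, with each match in capitals (overlapping matches run together).
Isg15, chr4:156200819-156201068, minus strand: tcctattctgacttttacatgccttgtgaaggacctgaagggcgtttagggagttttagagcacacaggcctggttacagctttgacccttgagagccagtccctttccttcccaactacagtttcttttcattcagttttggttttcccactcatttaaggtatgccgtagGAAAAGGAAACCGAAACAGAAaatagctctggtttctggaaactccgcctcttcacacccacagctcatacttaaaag
Bst2, chr8:71537473-71537722, minus strand: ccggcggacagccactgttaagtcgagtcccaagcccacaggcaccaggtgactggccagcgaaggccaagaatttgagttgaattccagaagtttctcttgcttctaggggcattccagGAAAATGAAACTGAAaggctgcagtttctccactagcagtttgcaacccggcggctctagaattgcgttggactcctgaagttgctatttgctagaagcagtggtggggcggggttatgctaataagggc
Stat2, chr10:128270248-128270497, plus strand: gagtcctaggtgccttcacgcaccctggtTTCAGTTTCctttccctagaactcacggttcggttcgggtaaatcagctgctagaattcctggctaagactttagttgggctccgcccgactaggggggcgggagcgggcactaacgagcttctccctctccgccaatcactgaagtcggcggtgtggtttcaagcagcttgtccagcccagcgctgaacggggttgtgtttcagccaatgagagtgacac
Isg15 held 3 overlapping matches that begin 78, 72 and 66 bases before the start, Bst2 held 2 that begin 130 and 124 bases before it, and Stat2 held 1 on the opposite strand, 221 bases before it. The windows of Irf7 and Irf9 held none. TTCNNNGAA, the form of a gamma-activated site, stood in the Bst2 window alone among the 5 genes, where it overlaps the first repeat, and in 8.30% of all windows. TGGGAA, 1 form of the core read by Ikaros, stood 2 times in the Isg15 window, 3 times in 1 of the Irf9 windows and in none of the other 3 genes, against 25.6% of all windows with at least 1 match. Other or shorter forms of this core were not searched, so a window without TGGGAA can still hold one. A match in these letters is a description of the sequence, and the windows of these genes were not tested for binding. Isg15 and Bst2, which share the element in tandem, moved in opposite directions in the values that follow.

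**Figure D1:**
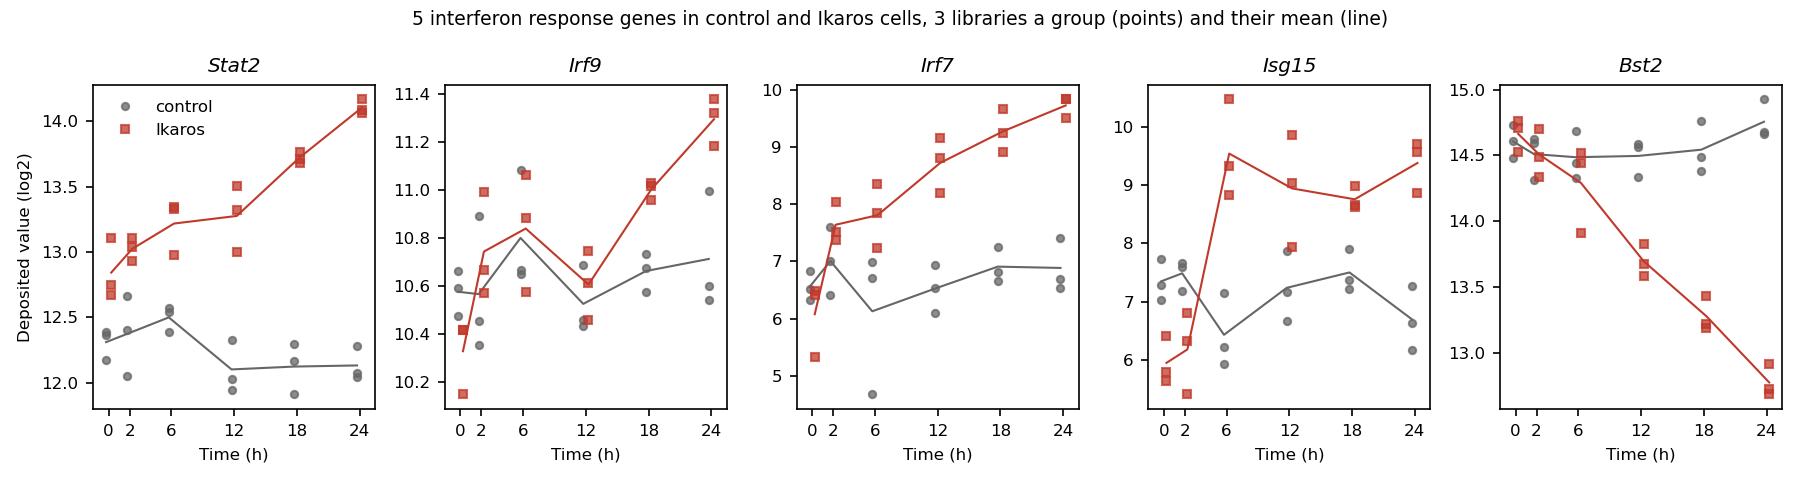
Normalised expression (log2, y axis; each panel has its own range) of Stat2, Irf9, Irf7, Isg15 and Bst2 against time in hours, with 1 point for each library and lines through the means of n = 3 in control cells (grey circles) and Ikaros cells (red squares). At 24 h the Ikaros libraries lie above all control libraries for the first 4 genes and below them for Bst2, where they sit between 12.68 and 12.91. How many of all genes separate in this way was not counted.

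Stat2 lay on chromosome 10 (GRCm38, 128270559 to 128292849, plus strand) and was expressed above the median gene, at percentile 69.3 of mean expression in the table. At 0 h its values were 12.39, 12.37 and 12.17 in control cells and 12.74, 13.11 and 12.67 in Ikaros cells. At 24 h they were 12.28, 12.04 and 12.07 in control cells and 14.09, 14.06 and 14.17 in Ikaros cells. Every Ikaros library was above every control library at all 6 times, already before induction. The difference (SE 0.148) went from 0.53 before induction through 0.65, 0.72, 1.18 and 1.60 to 1.98 at 24 h, the last a 3.94-fold higher level (limma adjusted p = 7.5e-12). All 6 were called, and the change from the 0 h difference was called from 12 h on (0.64, SE 0.210) and reached 1.44 at 24 h. Control cells stayed between 11.91 and 12.66 over the whole course. The calls at 0 and 2 h and the change at 12 h rest on few libraries. Without replicate 1 the limma adjusted p values were 0.118, 0.117 and 0.231, and without replicate 2 they were 0.530, 0.0694 and 0.244.

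Irf9, the DNA-binding subunit of ISGF3, lay on chromosome 14 (55603571 to 55610030, plus strand) at percentile 36.1 of mean expression. Its values at 0 h were 10.59, 10.66 and 10.48 in control cells and 10.15, 10.42 and 10.42 in Ikaros cells, which were the lower ones. At 24 h they were 10.60, 10.54 and 10.996 in control cells and 11.18, 11.32 and 11.38 in Ikaros cells, again without overlap but in the other direction. The 0 h difference of -0.25 was not called (limma adjusted p = 0.404). The groups overlapped at 2, 6 and 12 h, with differences between 0.04 and 0.18 (SE 0.150), none of them called. At 18 h the difference was 0.34 (limma adjusted p = 0.0549), and with culture batch as a replicate block it was called (adjusted p = 0.0172). At 24 h it was 0.58, a 1.497-fold higher level (limma adjusted p = 0.00148), which without replicate 2 was 0.48 (adjusted p = 0.103). The change from the 0 h difference was called at 18 h (0.59) and 24 h (0.83, SE 0.212), where without replicate 2 the limma adjusted p values were 0.201 and 0.109, and without replicate 1 the one at 18 h was 0.245. Irf9 shares 123 exonic bases on the same strand with Rnf31, which was itself 0.95 higher in Ikaros cells at 24 h, so reads over these bases are uncertain between both genes.

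Irf7, on chromosome 7 (141262706 to 141266481, minus strand), was a low transcript, at percentile 12.0 of mean expression, and its libraries scattered more than those of Stat2 (mean SD within groups 0.559 against 0.181). At 0 h it read 6.32, 6.83 and 6.51 in control cells and 6.40, 6.49 and 5.34 in Ikaros cells, which overlap. At 6 h it read 4.68, 6.99 and 6.71 in control cells and 7.84, 7.23 and 8.34 in Ikaros cells, so that 1 control library was far below the other 2. At 24 h it read 6.70, 6.54 and 7.42 in control cells and 9.83, 9.51 and 9.83 in Ikaros cells, which were apart from them as they were at 6, 12 and 18 h. The difference was -0.48 at 0 h and 0.63 at 2 h, neither called, and then 1.68, 2.20, 2.36 and 2.84 (SE 0.440) from 6 to 24 h, the last a 7.15-fold higher level (limma adjusted p = 3.15e-06). The change from 0 h was called from 6 h on (2.15, SE 0.623) and was 3.31 at 24 h. Both 6 h calls were lost without replicate 1 of every group, the low control library among them, where the difference was 0.94 (limma adjusted p = 0.228) and the change 1.69 (adjusted p = 0.207). They were also lost with only the compared groups fitted (limma adjusted p = 0.132 and 0.111), and without replicate 3, which keeps the low library, the change was 1.83 (adjusted p = 0.108). Against its own 0 h, Irf7 in Ikaros cells was the 1 member called at 2 h, 1.56 higher, a call that was lost without replicate 2 (limma adjusted p = 0.0558) and without replicate 3 (1.00, adjusted p = 0.239). Irf7 shares 45 exonic bases with Phrf1 on the other strand, which was not called at 24 h (-0.21).

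Isg15, on chromosome 4 (156199424 to 156200818, minus strand), showed the largest difference of the 5 at 6 h. It was at percentile 13.1 of mean expression. At 0 h it read 7.29, 7.03 and 7.72 in control cells and 5.79, 6.42 and 5.64 in Ikaros cells, and at 2 h 7.67, 7.60 and 7.19 against 6.80, 6.33 and 5.41, so Ikaros cells held less of it in all libraries of both times. At 6 h it read 5.93, 6.22 and 7.14 in control cells and 9.32, 8.83 and 10.48 in Ikaros cells, with the order turned round. The later Ikaros libraries stayed between 7.94 and 9.85, all above the controls of their time. The difference was -1.40 (SE 0.451, limma adjusted p = 0.0533) at 0 h, -1.31 (adjusted p = 0.0425) at 2 h and 3.11 at 6 h, an 8.65-fold higher level (adjusted p = 5.11e-06), followed by 1.71, 1.26 and 2.69 at the 3 later times. The change from the 0 h difference was called from 6 h (4.51, SE 0.638) to 24 h (4.09). Control cells at 6 h were 0.92 below their own 0 h, which was not called (limma adjusted p = 0.182), and Ikaros cells at 6 h were 3.59 above theirs. The calls at 2, 12 and 18 h were lost without replicate 1 (limma adjusted p = 0.201, 0.0716 and 0.136), those at 2 and 18 h also without replicate 2 (0.201 and 0.1), and that at 2 h also with separate blocks for culture batch at 0 h and later (0.0510). With only the compared groups fitted, those at 2 and 12 h were lost too (limma adjusted p = 0.0982 and 0.0553). Quantile normalization also lost the 2 h call (limma adjusted p = 0.0944). Within culture batches the 12 h difference ran from 0.07 to 3.18.

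Bst2, on chromosome 8 (71534255 to 71537456, minus strand), moved the other way. It was the most highly expressed of the 5, at percentile 88.5 of mean expression. At 0 h it read 14.48, 14.61 and 14.73 in control cells and 14.71, 14.52 and 14.76 in Ikaros cells, which overlap as they did at 2 and 6 h. At 24 h it read 14.68, 14.66 and 14.93 in control cells and 12.91, 12.72 and 12.68 in Ikaros cells, which were far below. Over these 3 times the difference was 0.06, -0.003 and -0.20 (SE 0.144), none called. It was then called with -0.80, -1.27 and -1.98 at 12, 18 and 24 h, the last a 3.96-fold lower level (limma adjusted p = 3.6e-12). The change from the 0 h difference was called at the same 3 times, -0.86 at 12 h and -2.04 (SE 0.203) at 24 h. At 12 h it was lost without replicate 2 (limma adjusted p = 0.0792). Ikaros cells at 6 h were 0.37 below their own 0 h (limma adjusted p = 0.0472), a call that was lost without replicate 1, 2 or 3 (adjusted p = 0.490, 0.108 and 0.0620).

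**Figure D2:**
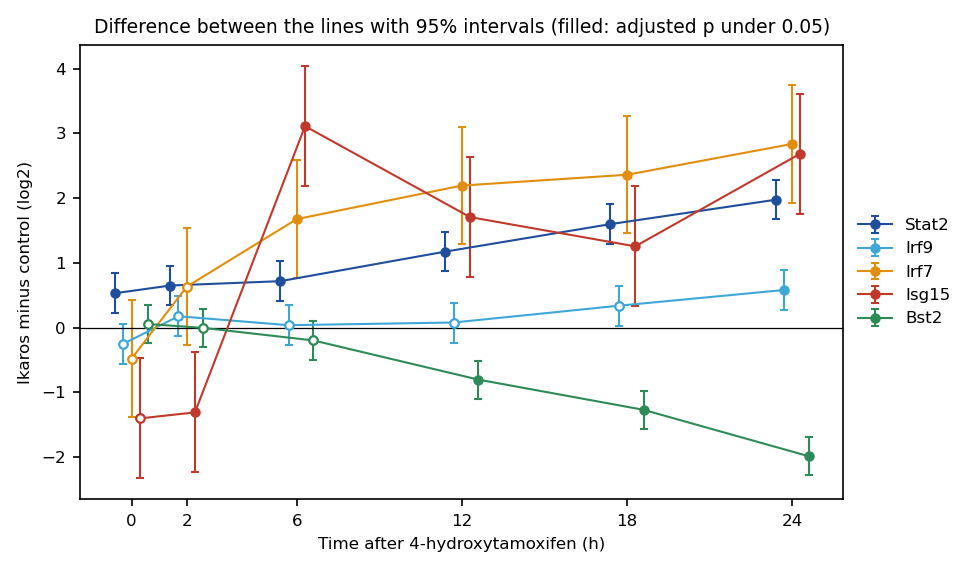
Ikaros minus control difference (log2, y axis) against time in hours for the 5 genes, shifted slightly sideways so that they do not cover each other, with 95% intervals from limma; filled points passed an adjusted p of 0.05. Stat2 and Irf7 climb to 1.98 and 2.84, Isg15 goes from -1.31 at 2 h to 3.11 at 6 h, and Bst2 falls to -1.98.

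By time, 1, 2, 3, 4, 4 and 5 of the 5 members were called in Ikaros against control cells from 0 to 24 h. Among all genes tested the shares called were 8.33%, 19.1%, 37.3%, 45.8%, 58.2% and 62.9%, so at 18 and 24 h most genes of the table were called. The change of the difference from 0 h was called for 0 members at 2 h (limma, 0 of them at an unadjusted p under 0.05) and then for 2, 4, 5 and 5, against 3.1%, 15.9%, 29.7%, 43% and 48.4% of all genes. The F test over the 5 changes called all 5 members and 59.8% of all genes. In Ikaros cells against their own 0 h, 1, 4, 4, 5 and 5 members were called at the 5 later times, against 19.2%, 32.8%, 46.1%, 54.6% and 60.6% of genes. With culture batch as a replicate block limma called Irf9 too at 2 h (0.48, adjusted p = 0.00793), Stat2 too at 6 h (0.44, adjusted p = 0.0304) and Irf9 too at 12 h (0.35, adjusted p = 0.029), which makes 2, 5 and 5. With only the compared groups fitted 0 were called at 2 h and 2 at 6 h. In control cells limma called 0 members at each of these times, and 0 had an unadjusted p under 0.05, where 0.047%, 5.1%, 0.0549%, 0.478% and 0.47% of all genes were called. Within each of the 3 culture batches the 24 h difference had the same sign as the mean for all 5 members, between 0.38 and 0.78 for Irf9 and between -2.25 and -1.77 for Bst2. How many of all genes show such agreement was not counted, and 62.9% of them were called at 24 h.

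For every pair of members the correlation was larger in size over the Ikaros libraries than over the control libraries, and some pairs are given here. Over the 18 Ikaros libraries Stat2 and Irf9, partners in ISGF3, had a Pearson correlation of 0.88, Stat2 and Irf7 one of 0.83, and Stat2 and Bst2 one of -0.89. Over the 18 control libraries the same pairs gave 0.43, 0.01 and -0.41. With the group means removed, all 36 libraries gave 0.54, 0.16 and -0.15. Stat2 and Isg15 gave 0.60 over the Ikaros libraries, -0.35 over the control libraries and -0.31 with the group means removed. These libraries share batches and the time course, and the values are descriptions. Genes whose values were among the most like each member over the 36 libraries were Ifnar1 (0.96), 4933439C10Rik and Ccdc157 for Stat2, Mettl10 (0.88) and Cir1 (0.88) for Irf9, Peli1 (0.93), Fchsd1 and Capsl for Irf7, Rom1 (0.86), Mbip and Poll for Isg15, and Tmed1 (0.96), Pemt and Ptges3 for Bst2. Ifnar1 is a chain of the type I interferon receptor, and 4933439C10Rik and Ccdc157 were almost as close to Stat2 by this measure (both 0.96).

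Around the members, a list of 115 other genes of the pathway was read, of which 85 were in the table. At 24 h 46 of the 85 were called higher in Ikaros cells, 18 lower and 21 neither, with a median difference of 0.59, against 31% of all genes called higher and 31.9% lower and a median of -0.005. At 2 h the same list leaned the other way, with 7 called higher and 21 lower (9.18% and 9.88% of all genes) and a median of -0.15 against -0.002. At 6 h 23 were called higher and 24 lower (18.1% and 19.2% of all genes). The low Isg15 at 2 h stood beside a list with more genes called lower than higher, but Isg15 was already low at 0 h (-1.40, not called). At 6 h it was 3.11 higher while the list was nearly even. Its level at 24 h stood beside a list with more genes called higher than lower. These are differences between the lines at 1 time, and some stood before induction. Genes given below besides the highest and lowest difference of each role were chosen after their values were seen.

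Of the receptors and kinases, 6 of 8 were called higher at 24 h and 0 lower, where 31% of all genes were called higher and 31.9% lower. Il10rb, a chain shared by the receptors for interleukin 10 and type III interferons, had the highest difference (2.57, SE 0.232, 5.94-fold). Ikaros cells were 1.37 above their own 0 h in Il10rb, and control cells 0.96 below theirs (not called, limma adjusted p = 0.0567). Against its own 0 h, Tyk2 rose most in Ikaros cells (1.61). Ifnar1 was 1.32 higher, Ifngr1, a chain of the interferon gamma receptor, 1.46, and the kinases Jak2 and Tyk2 1.44 and 1.39, and each of these had no overlap between the groups. The share of all genes without overlap was not counted. Ifnar1 was called from 2 h on (0.65). Ifngr2 was 0.46 higher, and without replicate 3 it was 0.34 (limma adjusted p = 0.101). The other chain of the type I receptor, Ifnar2 (0.29, limma adjusted p = 0.0955), and Jak1 (0.20, adjusted p = 0.452) were not called, although Ifnar2 was with separate blocks for culture batch at 0 h and later (adjusted p = 0.0434).

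Of the transcription factors, 5 of 8 were called higher at 24 h and 0 lower (31% and 31.9% of all genes). Irf1, which acts early after interferon gamma, had the highest difference (2.07, SE 0.115, 4.21-fold), after it had been 0.59 lower in Ikaros cells at 0 h. Irf5 (0.64) and Irf2 (0.71) were called higher as well, both after a lower level at 2 h (-0.77 and -0.73). The 24 h call of Irf2 was lost without replicate 2 (0.64, limma adjusted p = 0.117).

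The nucleic acid sensors and their adaptors split, with 11 of 19 called higher and 4 lower at 24 h (31% and 31.9% of all genes). Zbp1, a sensor of Z-form nucleic acid, had the highest difference (4.04, SE 0.652), at a low level. Its Ikaros libraries at 24 h lay between 7.64 and 8.14 and its control libraries between 3.43 and 4.31. Like Isg15 it went from lower in Ikaros cells at 2 h (by 1.28, not called) to higher at 6 h (by 2.65). It was 0.91 higher at 12 h (not called). At 18 h the courses parted, with Zbp1 3.11 higher and Isg15 1.26 higher. Tlr9, the endosomal receptor for CpG DNA, was 2.96 higher and Ddx58, which encodes the RNA sensor RIG-I, 2.57 higher. Traf3, an adaptor towards Irf3 and Irf7, had the lowest difference (-1.90, SE 0.127), and Mb21d1, which encodes the DNA sensor cGAS, was lower too (-1.81). The change of the difference from 0 h was -1.57 for Traf3 and -1.92 for Mb21d1, the latter the lowest of this role.

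Among the antiviral effectors 16 of 33 were called higher and 8 lower at 24 h (31% and 31.9% of all genes). Epsti1 had the highest difference, and went from 9.002 ± 0.304 (SD, n = 3) at 0 h to 14.67 ± 0.351 at 24 h in Ikaros cells, while control cells read 9.22 ± 0.10 at 24 h, a difference of 5.44 (SE 0.196, 43.5-fold). Gbp2, a guanylate-binding protein, was 4.95 higher and Sp100, a component of nuclear bodies, 3.82 higher. Oasl1 was 2.11 higher at 6 h and 2.16 at 24 h, with 0.78 at 18 h between them. Ifitm2, a membrane protein that blocks virus entry, had the lowest difference (-2.65, SE 0.233, 6.29-fold lower). Bst2, another membrane-bound effector, was lower at 24 h too, and a link between both genes was not tested.

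Of the 3 genes that attach Isg15 to its substrates, Uba7, the activating enzyme, was called higher at 24 h (1.03, SE 0.116), Ube2l6, the conjugating enzyme, was called lower (-1.23, SE 0.194), and the ligase Herc6 was not called (0.28, limma adjusted p = 0.121). Ube2l6 was already lower at 6 h (-1.11), when Isg15 was highest relative to control, and Uba7 was then lower too (-0.34). Of the negative regulators, 7 of 14 were called higher and 5 lower at 24 h (31% and 31.9% of all genes). Socs1, an inhibitor of Jak kinases, had the highest difference (1.35, SE 0.230), after it had been called lower at 0, 2 and 6 h (-1.37 at 6 h), while Pias3 was 1.32 higher. Cish, an inhibitor of STAT signalling downstream of cytokines, had the lowest difference (-1.23, SE 0.377). It had been lower by more at 0 h (-2.05), so that its change from 0 h was 0.81 (not called, limma adjusted p = 0.217). Its groups overlapped at 24 h, and the call at that time was lost without replicate 2 (limma adjusted p = 0.0517) and without replicate 3 (adjusted p = 0.142). Ptpn6 (-1.18) and Socs2 (-1.05) were lower as well. Of 7 listed interferon genes none was matched, so the ligands are not analysed here.

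**Figure D3:**
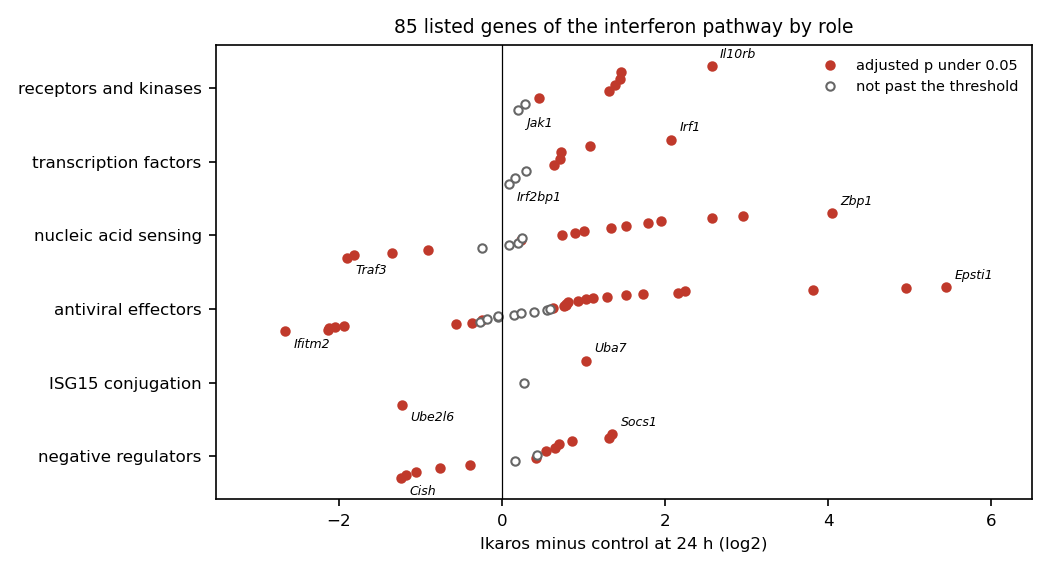
Ikaros minus control difference at 24 h (log2, x axis) for each of the 85 listed genes, in rows by role and sorted within a row, with filled points past an adjusted p of 0.05; the highest and lowest gene of each row is named. Receptors and transcription factors lie above 0 throughout, while the effectors run from -2.65 (Ifitm2) to 5.44 (Epsti1).

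**Figure D4:**
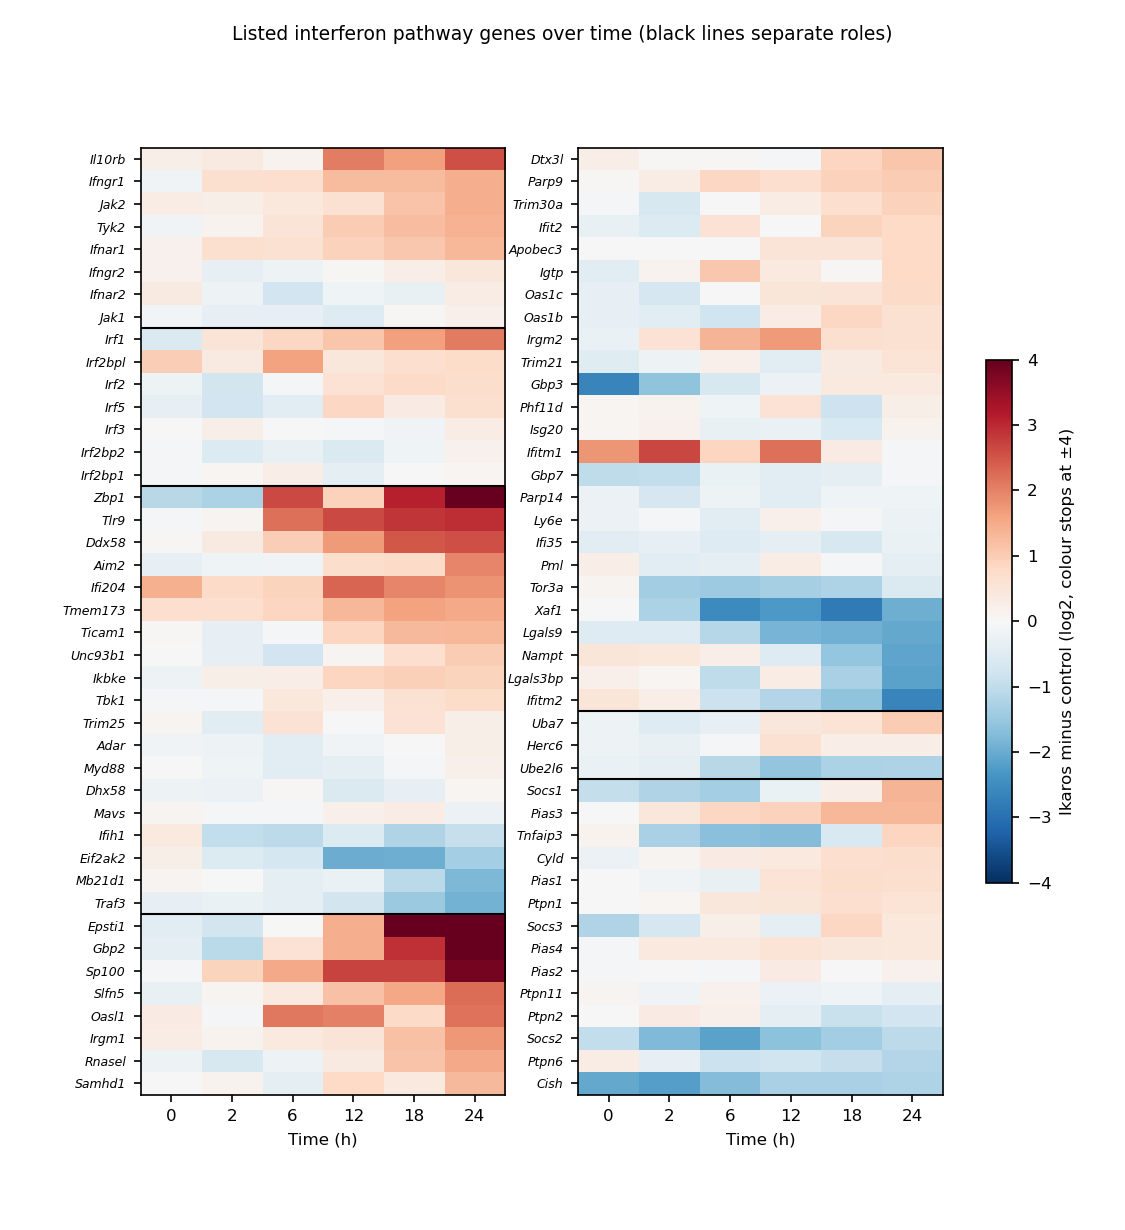
Genes of the same list in rows (1 of the 85 is not shown), grouped by role (black lines) and sorted by their 24 h value, with the 6 times in hours as columns and the Ikaros minus control difference (log2) as colour, red for higher and blue for lower in Ikaros cells; colours stop at 4, which Epsti1, Gbp2 and Zbp1 pass at 24 h. Of all 85, 37 had a difference above 0 at 0 h (4 called higher), 36 at 2 h (7 called higher) and 62 at 24 h (46 called higher). Among all 12762 genes these were 5700 at 0 h (588 called higher), 6348 at 2 h (1171) and 6353 at 24 h (3953).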

How the data were processed

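The authors trimmed reads, placed fragments on mm10 by TopHat2 (unique best hits), counted them per gene by HTSeq, corrected GC content and length by cqn, and removed the effect of library preparation by ComBat in its non-parametric form. Deposited values are log2 expression, as cqn builds it, with a constant that puts the table minimum at 1; the table does not name the base of the logarithm, so fold changes rest on base 2. The strand setting of the counting is not given in the sources used here. Spread removed by the batch adjustment cannot be seen by a later model, so standard errors may be too small. No counts were used, so depth is unknown, and precision is limited by 3 libraries a group.

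One limma model (version 3.58.1, R 4.3.3) with 12 group means and eBayes covered all 12762 genes, with two-sided tests, since the study states no differential test, and the fit was tested on simulated data. The labels describe biological replicates by culture batch, and the batch number pairs control and Ikaros cultures, whose deviations from the group means were compared. Over the 18 pairs, the correlation of these deviations ran from -0.0620 to 0.507 (median 0.127), with 12 pairs above 0.1. Alternatives were blocks for culture batch, a filter on genes under the 25th percentile of the mean, quantile normalization, a trended robust eBayes, only the compared groups, and leaving out each replicate. Named genes were the members, Ikzf1, the called genes of highest and lowest Ikaros minus control difference per role at 24 h, and for each member the 3 genes of highest correlation, of which some are not reported here. The members and lists were chosen with earlier results of these data known. Positions are from GENCODE mouse release M21 on GRCm38, the build of mm10, where 98.7% of the identifiers matched, and promoters from RefSeq on GRCm38.p6.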

Additional observations from a re-analysis of the deposited data

Results flagged for a closer look

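The change over time differed between the lines for all 5 members by the limma F test over the 5 changes, and by the single test at 24 h. These tests called 59.8% and 48.4% of all genes, and the 24 h call of Irf9 was lost without replicate 2 (limma adjusted p = 0.109). The change of the Ikaros minus control difference from 0 h to 24 h was 1.44 for Stat2, 0.83 for Irf9, 3.31 for Irf7, 4.09 for Isg15 and -2.04 for Bst2 (log2). Bst2 was the 1 member with a negative change. The 0 h cultures were collected on separate occasions, so time in drug and any effect of the occasion that differs between the lines cannot be told apart.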

How the results depend on the processing

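All 5 members kept the direction of their 24 h difference and of its change from 0 h under every alternative that could be fitted. The filter at the 25th percentile removes Irf7 and Isg15 by construction, which leaves 1, 1, 2 and 3 called members for Ikaros against control at 2, 6, 12 and 24 h, 0, 2, 3 and 3 for the change at 6, 12, 18 and 24 h, 2, 3 and 3 for Ikaros cells at 12, 18 and 24 h against 0 h, and 3 for the F test. With only the compared groups fitted, 0 were called for Ikaros against control at 2 h, 1 for the change at 6 h, and 0 and 2 for Ikaros cells at 2 and 6 h against 0 h; the call at 0 h then went from Stat2 to Isg15. Quantile normalization gave 1 at 2 h and 2 for Ikaros cells at 2 h against 0 h. Culture batch as a replicate block gave 2 for the latter, and with separate 0 h blocks 1 at 2 h, where comparisons with 0 h inside a line could not be fitted; it added Stat2 at 6 h and Irf9 at 12 h for Ikaros cells against 0 h and Irf9 at 18 h for Ikaros against control, and changed no other call of a member apart from that of Isg15 at 2 h with separate 0 h blocks.

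Leaving out 1 replicate of each group gave 0 to 1 called members for Ikaros against control at 0 h, 0 to 2 at 2 h, 2 to 3 at 6 h, 3 to 4 at 12 h, 3 to 5 at 18 h and 4 to 5 at 24 h. The change gave 1 to 2 at 6 h, 2 to 5 at 12 h and 4 to 5 at 18 h and 24 h, the F test 4 to 5, and Ikaros cells against 0 h gave 0 to 1 at 2 h, 2 to 3 at 6 h, 3 to 5 at 12 h and 5 later. The differences that changed sign were near 0 and not called. Ikaros against control ran from -0.028 to 0.13 (0 h), -0.091 to 0.14 (2 h) and -0.39 to 0.094 (6 h) for Bst2 and from -0.049 to 0.096 (6 h) and -0.036 to 0.23 (12 h) for Irf9. The change at 2 h ran from -0.086 to 0.23 for Stat2, -0.17 to 0.47 for Isg15 (-0.019 with quantile normalization) and -0.22 to 0.17 for Bst2, the change of Bst2 at 6 h from -0.46 to 0.12, and Isg15 in Ikaros cells at 2 h against 0 h from -0.16 to 0.46.

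Calls over all genes moved too. From 0 to 12 h, 1063, 2432, 4759 and 5850 genes for Ikaros against control became as few as 318, 804, 2150 and 3769, and for the change 396, 2024, 3795, 5492 and 6180 became as few as 54, 584, 1548, 3077 and 4056 (661 at 2 h with separate 0 h blocks), with 7626 against 4064 in the F test. Ikaros cells at 2, 6 and 12 h gave 2444, 4182 and 5888, and as few as 645, 1904 and 3598 (3720 at 2 h with the batch block). Control cells gave 6, 651, 7, 61 and 60, and 0 without replicate 2 (2585 at 6 h with the batch block).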
